A study of Homo sapiens with 12 samples.

Results

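The pluripotency factors are genes whose products keep embryonic stem cells undifferentiated or mark that state, and 10 of them were followed here across 4 lymphoma cell lines: POU5F1, NANOG, SOX2, KLF4, LIN28A, LIN28B, SALL4, ZFP42, DPPA4 and UTF1. They were chosen by symbol in the annotation of the array, and they are 10 of 20172 genes and 14 of 33297 probe sets. For 8 of the genes, 9 probe sets carried that symbol alone. POU5F1 had 3 probe sets, each annotated to POU5F1 together with its copies POU5F1B, POU5F1P3 and POU5F1P4. NANOG had 2, each annotated to NANOG and its copy NANOGP1. Signal on these 5 probe sets cannot be assigned to the parent gene.

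Cells of the human anaplastic large cell lymphoma (ALCL) lines SUDHL-1, DEL, Karpas299 and SUPM2 were grown untreated in RPMI 1640 medium with serum to the logarithmic phase, stained with Hoechst 33342 and sorted into side population (SP) cells, which hold little of the dye, and main population (MP) cells. ALCL is a T-cell lymphoma, and these established lines are known to carry a fusion of NPM1 with the kinase gene ALK. The 12 arrays comprise 3 of SP and 3 of MP for SUDHL-1 and 1 of each for every other line. Whether the triplicates were grown as separate cultures is not given, so the p-values reflect the spread among these arrays alone and that spread may be technical. Each line is a model of 1 tumour, and 3 of the 4 rest on a single sort of each population.

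Values are log2 signals per probe set, so that a difference of 1 is a 2-fold difference in signal. The number of arrays limits their precision. The median signal of an array was 5.24 to 5.35 in DEL, Karpas299 and SUPM2 but 4.83 to 5.0 in SUDHL-1, an offset that touches every comparison of SUDHL-1 with another line. Of 6 measured ALCL markers, 5 lay above the reference level defined below on all 12 arrays (TNFRSF8, which encodes CD30, PTPRC, IL2RA, GZMB and PRF1). CD2 did so only in SUPM2, at 8.96 and 9.42 against 3.39 to 4.54 elsewhere. The mean of this list was 8.42 to 8.58 in SUDHL-1 arrays and 9.27 to 10.44 elsewhere. List means were 3.96 to 4.96 for 4 B-cell markers, 4.01 to 5.48 for 5 myeloid markers, 4.04 to 5.01 for 9 stromal and epithelial markers and 2.74 to 3.16 for 6 germ-cell markers. Among these, CSF1R stood at 7.45 to 8.59 and KRT18 at 7.23 to 7.78 in DEL, Karpas299 and SUPM2, against 4.90 to 5.55 and 5.40 to 6.24 in SUDHL-1, PAX5 reached 6.65 and 6.78 in Karpas299, and DCN 4.39 and 6.03 in DEL. The part of such cells or RNA in the differences between lines below was not tested. All 6 germ-cell markers lay below the reference on every array.

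In embryonic stem cells, POU5F1 (OCT4), SOX2 and NANOG bind together at the regulatory DNA of many genes, including their own, and form a loop that sustains the undifferentiated state. KLF4 and SALL4 are zinc finger factors that act beside them, and POU5F1, SOX2 and KLF4 belong to the set that reprogrammes adult cells. LIN28A and LIN28B are RNA-binding proteins that keep the let-7 family of microRNAs from maturing, which relieves let-7 targets such as HMGA1 and the IGF2BP genes. ZFP42 (REX1), DPPA4 and UTF1 are widely used markers of the undifferentiated state. Mature T cells are held to use few of these genes.

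The let-7 family, whose maturation LIN28B blocks, is shown because its precursors and targets are set beside LIN28B below. All 10 let-7 and miR-98 genes with a probe set matched the RefSeq miRNA table, and they give 8 mature guides with the same seed. The seed, bases 2 to 8 from the 5′ end, is in capitals.
hsa-let-7a-5p: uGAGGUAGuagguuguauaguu
hsa-let-7c-5p: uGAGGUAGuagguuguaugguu
hsa-let-7d-5p: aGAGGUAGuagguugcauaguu
hsa-let-7e-5p: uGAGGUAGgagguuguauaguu
hsa-let-7f-5p: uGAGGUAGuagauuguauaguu
hsa-let-7g-5p: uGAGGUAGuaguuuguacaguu
hsa-let-7i-5p: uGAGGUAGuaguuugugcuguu
hsa-miR-98-5p: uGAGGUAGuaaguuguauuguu
The 250 bases before the transcription start are shown for ZFP42 and LIN28B, the members with the widest differences between lines, with CG dinucleotides, the sites of DNA methylation, in capitals (RefSeq, GRCh38.p14, 5′ to 3′ on the strand of the gene, here the plus strand). The ZFP42 stretch is chr4:187995521-187995770 and holds 23 CG. For LIN28B the promoter table holds 2 starts, with chr6:104940715-104940964 (33 CG) before the first of them and chr6:104956857-104957106 (6 CG) before the second.
ZFP42: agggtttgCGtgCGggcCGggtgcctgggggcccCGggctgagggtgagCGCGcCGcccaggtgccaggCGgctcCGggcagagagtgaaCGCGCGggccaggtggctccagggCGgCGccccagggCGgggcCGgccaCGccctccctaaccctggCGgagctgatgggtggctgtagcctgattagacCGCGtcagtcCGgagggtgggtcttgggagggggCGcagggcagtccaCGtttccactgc
LIN28B, the first start: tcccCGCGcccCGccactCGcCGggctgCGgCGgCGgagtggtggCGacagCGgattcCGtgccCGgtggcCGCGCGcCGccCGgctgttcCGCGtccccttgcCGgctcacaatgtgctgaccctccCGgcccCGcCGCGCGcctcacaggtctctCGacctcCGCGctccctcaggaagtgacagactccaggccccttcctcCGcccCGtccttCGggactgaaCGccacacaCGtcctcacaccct
LIN28B, the second start: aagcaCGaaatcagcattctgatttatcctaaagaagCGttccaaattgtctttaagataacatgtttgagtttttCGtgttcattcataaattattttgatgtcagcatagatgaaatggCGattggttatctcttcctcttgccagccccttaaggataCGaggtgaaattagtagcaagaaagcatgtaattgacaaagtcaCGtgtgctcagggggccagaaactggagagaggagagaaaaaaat
The table held 7 of the 10 members. Their stretches had 3 (DPPA4) to 33 CG, against a median of 11 over 35116 promoters. The octamer motif ATGCAAAT, a SOX motif AACAAAG and a KLF motif GGGTGTGG, searched on both strands with overlaps allowed, occurred in 1.63%, 4.50% and 2.97% of all stretches and in 0 of the 7 members. That says only that these letters are not in these windows.

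As the table has no detection call, each level was placed against the 360 probe sets of olfactory receptor genes, which lymphocytes hardly use. Their 95th percentile on the same array, 4.36 to 5.14, served as the reference. Probe sets differ in how strongly they bind, so this places a signal on its array and does not rank the members against each other. SP and MP cells together, 47 of the 120 values (10 genes on 12 arrays, any probe set of the gene) lay above the reference. UTF1 and POU5F1 did so on 12 arrays, SOX2 on 11, LIN28B on 5, KLF4 on 4, ZFP42 on 2 and NANOG on 1. LIN28A, SALL4 and DPPA4 did so on 0. The median of all probe sets also lay above the reference on every array (4.97 against 4.57 on SUDHL-1 SP replicate 1, 5.31 against 5.13 on SUPM2 SP). Most probe sets were thus above it, and a value above it does not set a member apart. The percent rank among all probe sets of an array was 45.2 to 64.3 for POU5F1 (8124889), 41.9 to 84.3 for SOX2 and 66.9 to 77.8 for UTF1. Against a stricter reference from 125 probe sets of keratin-associated, taste receptor and beta-defensin genes (6.98 to 7.52), 3 of the 120 values were higher, of which 2 were SOX2 values and 1 a ZFP42 value.

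**Figure D1:**
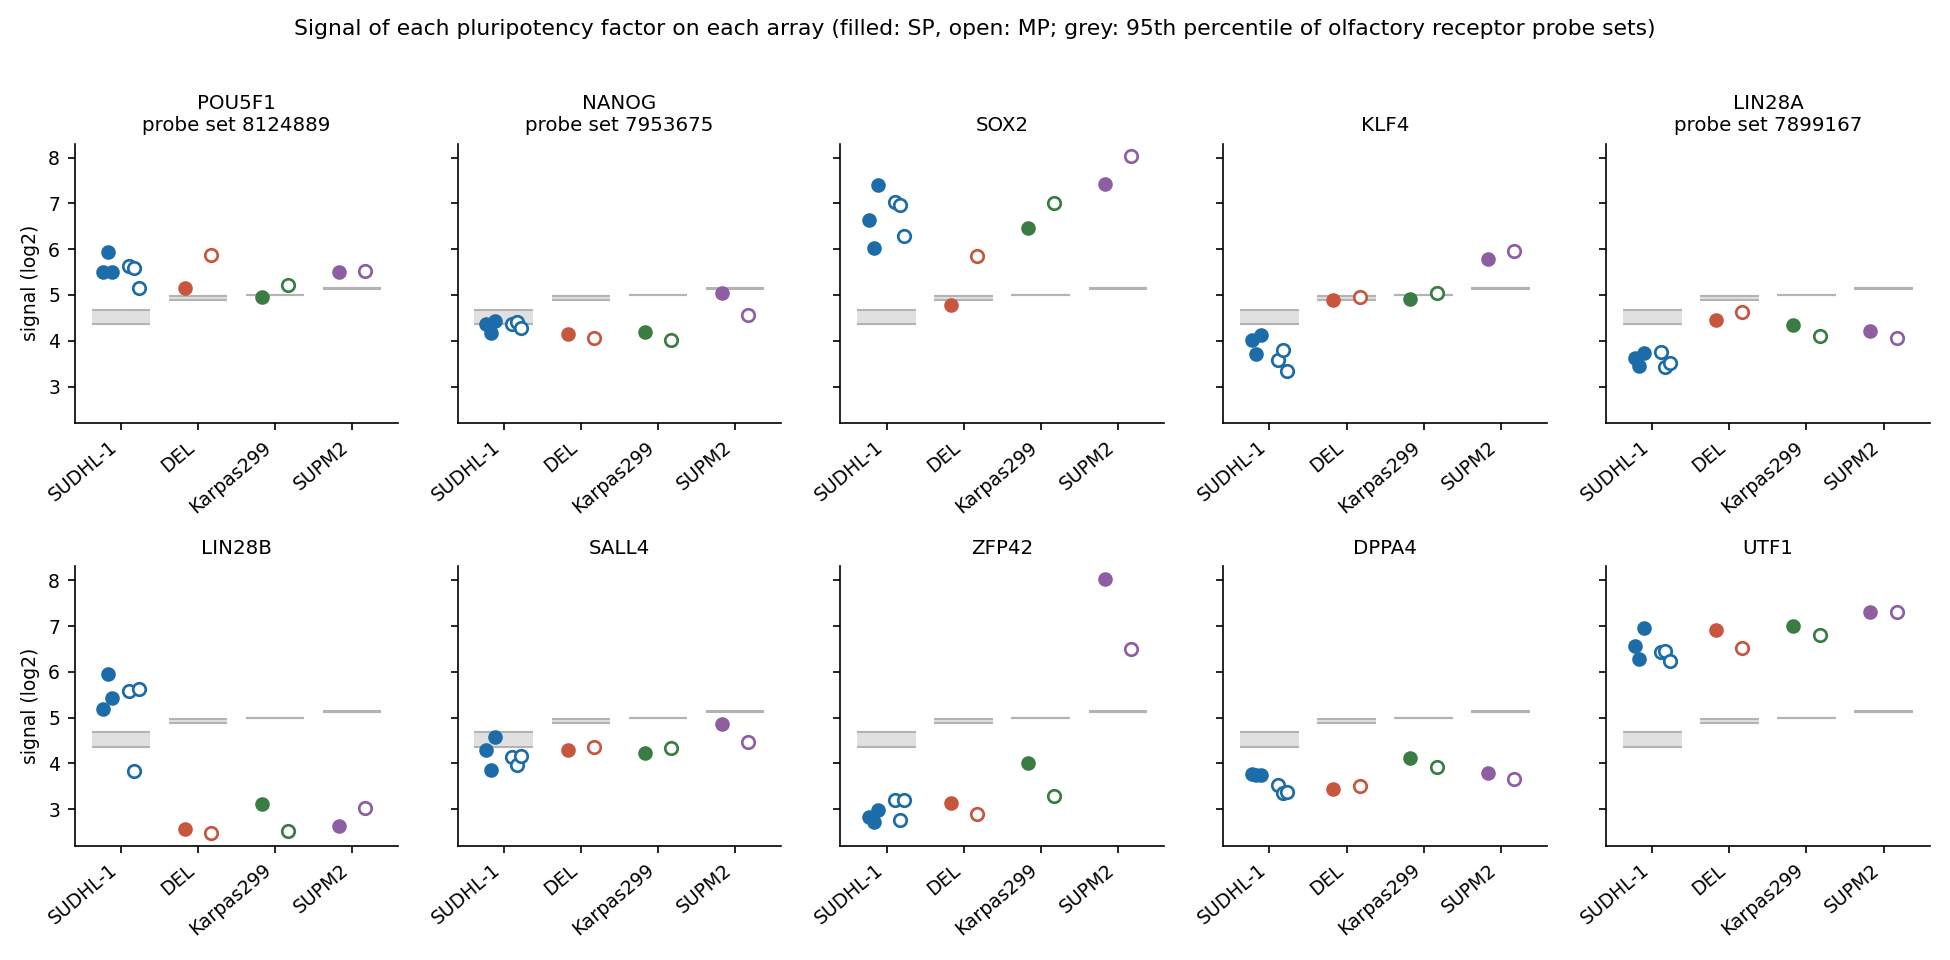
Log2 signal of each member on each of the 12 arrays (vertical axis), by cell line (horizontal axis), with SP arrays as filled and MP arrays as open circles and the range of the olfactory receptor 95th percentile over the arrays of that line in grey. ZFP42 is high on both SUPM2 arrays (8.03 and 6.50), LIN28B is high on 5 of 6 SUDHL-1 arrays, and KLF4 is lowest in SUDHL-1.

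The plot of levels by array shows wide gaps between cell lines for ZFP42, LIN28B and KLF4. ZFP42 lay at 6.50 and 8.03 in SUPM2 and at 4.02 or below on the other 10 arrays. LIN28B lay at 5.19 to 5.96 on 5 of the 6 SUDHL-1 arrays and at 3.12 or below in the other lines. For SP against MP, 0 members passed limma's test.

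POU5F1 (chr6:31164337-31170682), a POU-domain factor at the head of the network, was read by probe sets that its copies share. Gene positions here and below are RefSeq spans on GRCh38.p14. Probe sets 8124889 and 8179719 hold the same values on all 12 arrays and are counted as 1 measurement. Probe set 8178470 differed from them by up to 0.33. On 8124889, SUDHL-1 SP arrays read 5.50, 5.93 and 5.50 and MP arrays 5.63, 5.59 and 5.14, so the groups overlapped. The SP and MP values were 5.15 and 5.87 in DEL, 4.95 and 5.22 in Karpas299, and 5.51 and 5.53 in SUPM2. SP was thus lower in 3 lines, with the widest gap in DEL (-0.72), and higher in SUDHL-1 (0.19). On 8178470 the SUPM2 difference was 0.21 instead, and the other lines kept their sign. Probe sets annotated to the copies alone read 5.88 to 7.19 (POU5F1P4), 5.39 to 6.21 (POU5F1P3) and 4.20 to 5.66 (POU5F1B). POU5F1B lay above the reference on 10 of the 12 arrays. As the copies are near identical, these probe sets may read each other's RNA, and the part of POU5F1 in the shared probe sets was not measured.

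NANOG, the homeobox factor of the loop (chr12:7789402-7799146), was read on 2 probe sets that share NANOGP1. Probe set 7953675 read 4.37, 4.16 and 4.44 in SUDHL-1 SP, 4.37, 4.40 and 4.27 in SUDHL-1 MP, 4.15 and 4.07 in DEL SP and MP, 4.19 and 4.01 in Karpas299, and 5.05 and 4.56 in SUPM2. Probe set 7987365 stayed within 0.25 of it and reached 5.18 on the SUPM2 SP array, the only NANOG value above the reference. On both probe sets the SUPM2 arrays were the highest of the 12. SUPM2 SP exceeded SUPM2 MP by 0.49 and 0.71, and the difference in the other lines was -0.02 to 0.24. The probe set annotated to NANOGP1 alone read 2.36 to 3.31.

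SOX2 (chr3:181711925-181714436), the HMG-box partner of POU5F1, had a probe set of its own. SUDHL-1 SP arrays read 6.64, 6.03 and 7.39 and MP arrays 7.03, 6.96 and 6.29. SP and MP read 4.78 and 5.84 in DEL, 6.45 and 7.01 in Karpas299, and 7.43 and 8.03 in SUPM2. All but the DEL SP array lay above the olfactory receptor reference. SP was lower than MP in 4 of 4 lines, with differences of -0.07 in SUDHL-1, where the groups overlapped, and -1.06, -0.56 and -0.60 in DEL, Karpas299 and SUPM2. Over the 4 lines the mean difference was -0.57 (SE 0.17, limma adjusted p = 0.929), so it did not pass the test. SP lay below MP in all 4 lines for 5.59% of the 21214 probe sets tested. The SUDHL-1 difference turned positive without SP replicate 2 (0.26), MP replicate 1 (0.06) or MP replicate 2 (0.03).

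KLF4 (chr9:107484852-107489769), a zinc finger factor that in T cells is tied to quiescence, read 4.01, 3.72 and 4.12 in SUDHL-1 SP and 3.57, 3.79 and 3.34 in SUDHL-1 MP. SP and MP read 4.90 and 4.97 in DEL, 4.90 and 5.04 in Karpas299, and 5.79 and 5.96 in SUPM2. SP was higher by 0.38 in SUDHL-1, where 1 MP value lay among the SP values, and the difference was -0.17 to -0.07 in the other lines. The mean over lines was 0.00, and the difference between SUDHL-1 and the other lines was 0.50 (SE 0.23, limma adjusted p = 1.00 for the interaction).

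ZFP42 (chr4:187995771-188005246), a zinc finger gene and marker of naive stem cells, read 2.82, 2.73 and 2.98 in SUDHL-1 SP and 3.20, 2.76 and 3.20 in SUDHL-1 MP. SP and MP read 3.13 and 2.90 in DEL, 4.02 and 3.29 in Karpas299, and 8.03 and 6.50 in SUPM2. Only the SUPM2 arrays lay above the reference. SP exceeded MP by 1.53 in SUPM2, 0.73 in Karpas299 and 0.23 in DEL, and the SUDHL-1 difference was -0.21 with overlapping groups. The mean over lines was 0.57 (SE 0.28, limma adjusted p = 0.929), and it was 0.25 without SUPM2. The SUDHL-1 difference set against the other lines was -1.04 (SE 0.33, limma adjusted p = 1.00). The SUPM2 gap is that of 1 SP and 1 MP array and has no replicate check.

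DPPA4 (chr3:109326144-109339636), a chromatin protein of early embryos, was the only member whose SUDHL-1 groups did not overlap. SP arrays read 3.78, 3.74 and 3.75 and MP arrays 3.52, 3.35 and 3.38. The difference was 0.33 (SE 0.13, limma adjusted p = 1.00). The groups did not overlap for 7.17% of the probe sets tested, with SP above for 3.81% and below for 3.37%. All 12 values, 3.35 to 4.13, were below the reference. SP and MP read 3.45 and 3.52 in DEL, 4.13 and 3.93 in Karpas299, and 3.78 and 3.65 in SUPM2, so SP was higher in 3 of 4 lines.

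UTF1 (chr10:133230217-133231558), a chromatin-bound coactivator, lay above the reference on every array, at 6.56, 6.27 and 6.96 in SUDHL-1 SP and 6.44, 6.46 and 6.24 in SUDHL-1 MP. SP and MP read 6.91 and 6.52 in DEL, 7.0 and 6.81 in Karpas299, and 7.31 and 7.31 in SUPM2. The SP minus MP difference was 0.22, 0.39, 0.19 and 0.00 in SUDHL-1, DEL, Karpas299 and SUPM2. SALL4 (chr20:51782331-51802521), which binds AT-rich DNA and recruits repressor complexes, stayed between 3.86 and 4.86 and below the reference on all arrays. Its SUDHL-1 SP values of 4.30, 3.86 and 4.57 enclosed the MP values of 4.14, 3.97 and 4.16. SUPM2 SP, at 4.86, was its highest array, 0.39 above SUPM2 MP.

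LIN28A (chr1:26410817-26429728) was read on 2 probe sets that differed by up to 0.95 on an array. On 7899167, SUDHL-1 arrays read 3.62, 3.46 and 3.73 in SP and 3.75, 3.43 and 3.52 in MP, and the other arrays 4.05 to 4.63. On 8065011 the ranges were 3.30 to 3.75 and 3.69 to 4.41. All of these values lay below the reference. In DEL the SP minus MP difference was -0.18 on the first and 0.72 on the second, so the probe sets disagreed in direction there, as they did in Karpas299 (0.24 and -0.29) and SUPM2 (0.17 and -0.23).

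LIN28B (chr6:104937026-105083332), the paralogue found in many tumours, read 5.19, 5.96 and 5.44 in SUDHL-1 SP and 5.59, 3.83 and 5.63 in SUDHL-1 MP. SP and MP read 2.56 and 2.48 in DEL, 3.12 and 2.52 in Karpas299, and 2.64 and 3.03 in SUPM2. The SUDHL-1 arrays were the 6 highest, and 5 of them lay above the reference, the exception being MP replicate 2 at 3.83. SP exceeded MP by 0.51 in SUDHL-1 (SE 0.49, limma adjusted p = 1.00), but the difference was -0.08 without MP replicate 2.

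**Figure D2:**
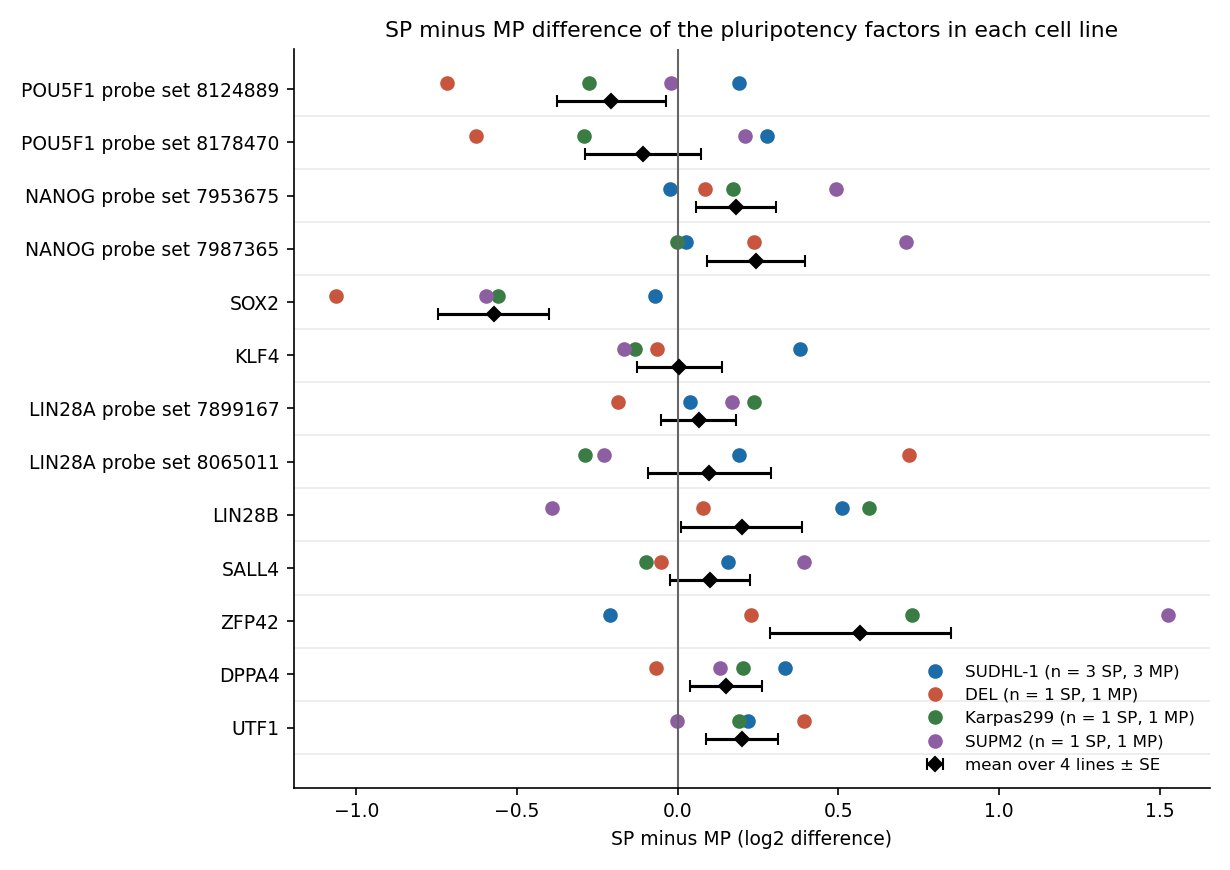
SP minus MP difference in log2 signal (horizontal axis) for the 13 distinct probe sets of the members, with a point per cell line and the mean over 4 lines with its limma standard error in black. SOX2 points lie below 0 in every line (-1.06 to -0.07), and ZFP42 spreads from -0.21 in SUDHL-1 to 1.53 in SUPM2.

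Set side by side in the plot of SP minus MP differences, 0 members passed limma's adjusted threshold of 0.05 in SUDHL-1, over the 4 lines or for the difference of SUDHL-1 from the other lines. Background calls were 0% of 21214 probe sets in each of these tests. At an unadjusted p under 0.05, 674 probe sets (3.18%) were counted in SUDHL-1, 985 (4.64%) over the lines and 756 (3.56%) for the difference, with 1 member in each: DPPA4, SOX2 and ZFP42. Of the 8 members with probe sets of their own, 6 were higher in SP in SUDHL-1, with a median of 0.19, and 7 over the lines, with a median of 0.13. Over all probe sets tested, 50.7% and 55.1% were higher, with medians of 0.00 and 0.02. Fewer cells of a kind and less RNA per cell cannot be told apart in such sorted bulk samples.

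Of 22 measured genes of the wider pluripotency network, 0 passed the SP against MP tests, 16 were higher in SUDHL-1 SP (median 0.08) and 17 over the lines (median 0.06). DPPA3 (STELLA), a maternal factor that guards DNA methylation, had the smallest p over the lines, with SP above MP by 1.10 in DEL, 0.62 in Karpas299, 0.57 in SUPM2 and 0.17 in SUDHL-1 (mean 0.62, SE 0.17, limma adjusted p = 0.929). In SUDHL-1, LEFTY2, a Nodal antagonist, differed by 0.27, the DNA methyltransferase DNMT3B by 0.39 and ESRRB, an orphan nuclear receptor, by -0.19, each with a limma adjusted p of 1.00. Network levels ran from 2.13 to 7.38. LEFTY1, LEFTY2, FGF4, KLF2, KLF5, TBX3 and TERT lay above the reference on 12 arrays, and 8 genes on 0.

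In the families of the factors, again 0 genes passed the SP against MP tests. Of 18 other SOX genes, 10 were higher in SUDHL-1 SP (median 0.00) and 12 over the lines (median 0.02). SOX5, like SOX2, was lower in SP in 4 of 4 lines (mean -0.49, SE 0.11, limma adjusted p = 0.929). Of 16 other KLF genes, 9 were higher in SUDHL-1 SP and 14 over the lines, with medians of 0.05 and 0.12. KLF6 and KLF10, both induced by stress and growth factors, were higher in SP in each line, by a mean of 0.56 (SE 0.14) and 0.43 (SE 0.12), with a limma adjusted p of 0.929. SP lay above MP in 4 of 4 lines for 8% of all probe sets. Of 12 other POU genes, 7 and 10 were higher in SP, and of 3 other SALL genes, 2 and 2.

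Between cell lines, by contrast, 8 of the 10 members differed by limma's F test, against a background of 60.6% of all probe sets. ZFP42 was higher in SUPM2 than in each other line, LIN28B was higher in SUDHL-1 than in each other line, KLF4 was lower in SUDHL-1 than in each other line, and SOX2 was lower in DEL than in SUDHL-1 and SUPM2. NANOG, LIN28A (on 7899167), UTF1 and DPPA4 also passed. The DPPA4 call was lost without any of 10 single arrays (limma adjusted p = 0.0507 to 0.171). The NANOG call on 7987365 was lost under both rescalings and without any of 6 arrays, and on 7953675 without SUPM2 SP (adjusted p = 0.131). The UTF1 call was lost with arrays centred (adjusted p = 0.123) and without SUPM2 MP (0.0806). POU5F1 (adjusted p = 0.320 and 0.473) and SALL4 (0.163) did not. The SP and MP arrays of a line served as its samples, so the error is that between sorted populations and not between cultures. As most probe sets passed as well, the share of members that did is no finding about them, and the results below are the sizes and the lines.

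The offset of the SUDHL-1 arrays bears on these levels. It was present on every SUDHL-1 array and on no other, so line and set of arrays cannot be told apart for SUDHL-1. Rescaling acts on whole arrays and cannot remove a set difference that is particular to a probe set. Over all probe sets the median was 0.28 higher in DEL and 0.30 higher in Karpas299 than in SUDHL-1, and 0.37 lower in SUDHL-1 than in SUPM2. After the columns were quantile normalized again these medians were 0.02, 0.05 and -0.07 (SUDHL-1 minus SUPM2), and with each array centred on its median -0.07, -0.03 and 0.04. Of the probe sets called, 75.5% were higher in DEL than in SUDHL-1 as deposited, 54.6% after quantile normalization and 44.1% after centring. For Karpas299 the shares were 75.4%, 55.5% and 46.7%, and 25.7%, 44.1% and 56.2% were higher in SUDHL-1 than in SUPM2. The members' differences were therefore read under all 3 scalings. Of 24 pairwise calls of members as deposited, 15 held in both rescaled tables.

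ZFP42 averaged 7.26 ± 1.08 (SD, n = 2) in SUPM2, 3.65 ± 0.52 (n = 2) in Karpas299, 3.02 ± 0.16 (n = 2) in DEL and 2.95 ± 0.21 (n = 6) in SUDHL-1. SUPM2 exceeded DEL by 4.24 (SE 0.39, limma adjusted p = 9.96e-05), Karpas299 by 3.61 (adjusted p = 0.000289) and SUDHL-1 by 4.31 (SE 0.32, adjusted p = 3.06e-06). Under the other scalings these differences were 4.18 to 4.25, 3.54 to 3.69 and 3.90 to 4.13. No pair among the other 3 lines was called. All ZFP42 values outside SUPM2 lay below the reference, so the size of these differences is uncertain. Set against the reference of the other lines' arrays in place of their signal, the SUPM2 mean was 2.26 to 2.73 higher. Without the SUPM2 SP array the excess over DEL was 3.51, and the 3 calls stayed.

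LIN28B averaged 5.27 ± 0.75 (SD, n = 6) in SUDHL-1, 2.83 ± 0.28 (n = 2) in SUPM2, 2.82 ± 0.42 (n = 2) in Karpas299 and 2.52 ± 0.06 (n = 2) in DEL. SUDHL-1 exceeded DEL by 2.75 (SE 0.44, limma adjusted p = 0.000643), Karpas299 by 2.45 (adjusted p = 0.00125) and SUPM2 by 2.44 (adjusted p = 0.000978). After rescaling these were 2.69 to 3.09 over the 3 pairs. The other 3 lines were not called apart from each other. Their values all lay below the reference, and the SUDHL-1 mean exceeded the reference of their arrays by 0.14 to 0.34, so the size of the LIN28B differences is uncertain.

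KLF4 averaged 5.88 ± 0.12 (SD, n = 2) in SUPM2, 4.97 ± 0.09 (n = 2) in Karpas299, 4.93 ± 0.05 (n = 2) in DEL and 3.76 ± 0.28 (n = 6) in SUDHL-1. SUDHL-1 lay below DEL by 1.17 (SE 0.19, limma adjusted p = 0.000715), Karpas299 by 1.21 (adjusted p = 0.000556) and SUPM2 by 2.12 (adjusted p = 1.13e-05), and by 0.82 to 1.73 under the other scalings. As all SUDHL-1 values lay below the reference, these sizes are uncertain, and against the SUDHL-1 reference the DEL, Karpas299 and SUPM2 means were 0.40, 0.44 and 1.35 higher. SUPM2 also exceeded DEL by 0.94 (SE 0.23, adjusted p = 0.0328) and Karpas299 by 0.91 (adjusted p = 0.0330). Those last calls were lost when either array of either line of the pair was left out, with adjusted p of 0.0529 to 0.226. DEL and Karpas299, neighbours in this order, were not called apart.

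SOX2 averaged 7.73 ± 0.42 (SD, n = 2) in SUPM2, 6.73 ± 0.39 (n = 2) in Karpas299, 6.72 ± 0.50 (n = 6) in SUDHL-1 and 5.31 ± 0.75 (n = 2) in DEL. DEL lay below SUDHL-1 by 1.41 (SE 0.34, limma adjusted p = 0.00768) and below SUPM2 by 2.42 (SE 0.42, adjusted p = 0.00556). Without the DEL SP array, at 4.78, the first was -1.02 (adjusted p = 0.145) and the second -2.02 (adjusted p = 0.0657), so both calls rest on that array. Karpas299 was called apart from no line. SUPM2 exceeded SUDHL-1 by 1.01 (limma adjusted p = 0.0291) as deposited, but by 0.94 (adjusted p = 0.0519) and 0.59 (adjusted p = 0.167) under the other scalings. That call was also lost without either SUPM2 array (adjusted p = 0.0999 and 0.172) or SUDHL-1 SP replicate 2 (0.0509).

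**Figure D3:**
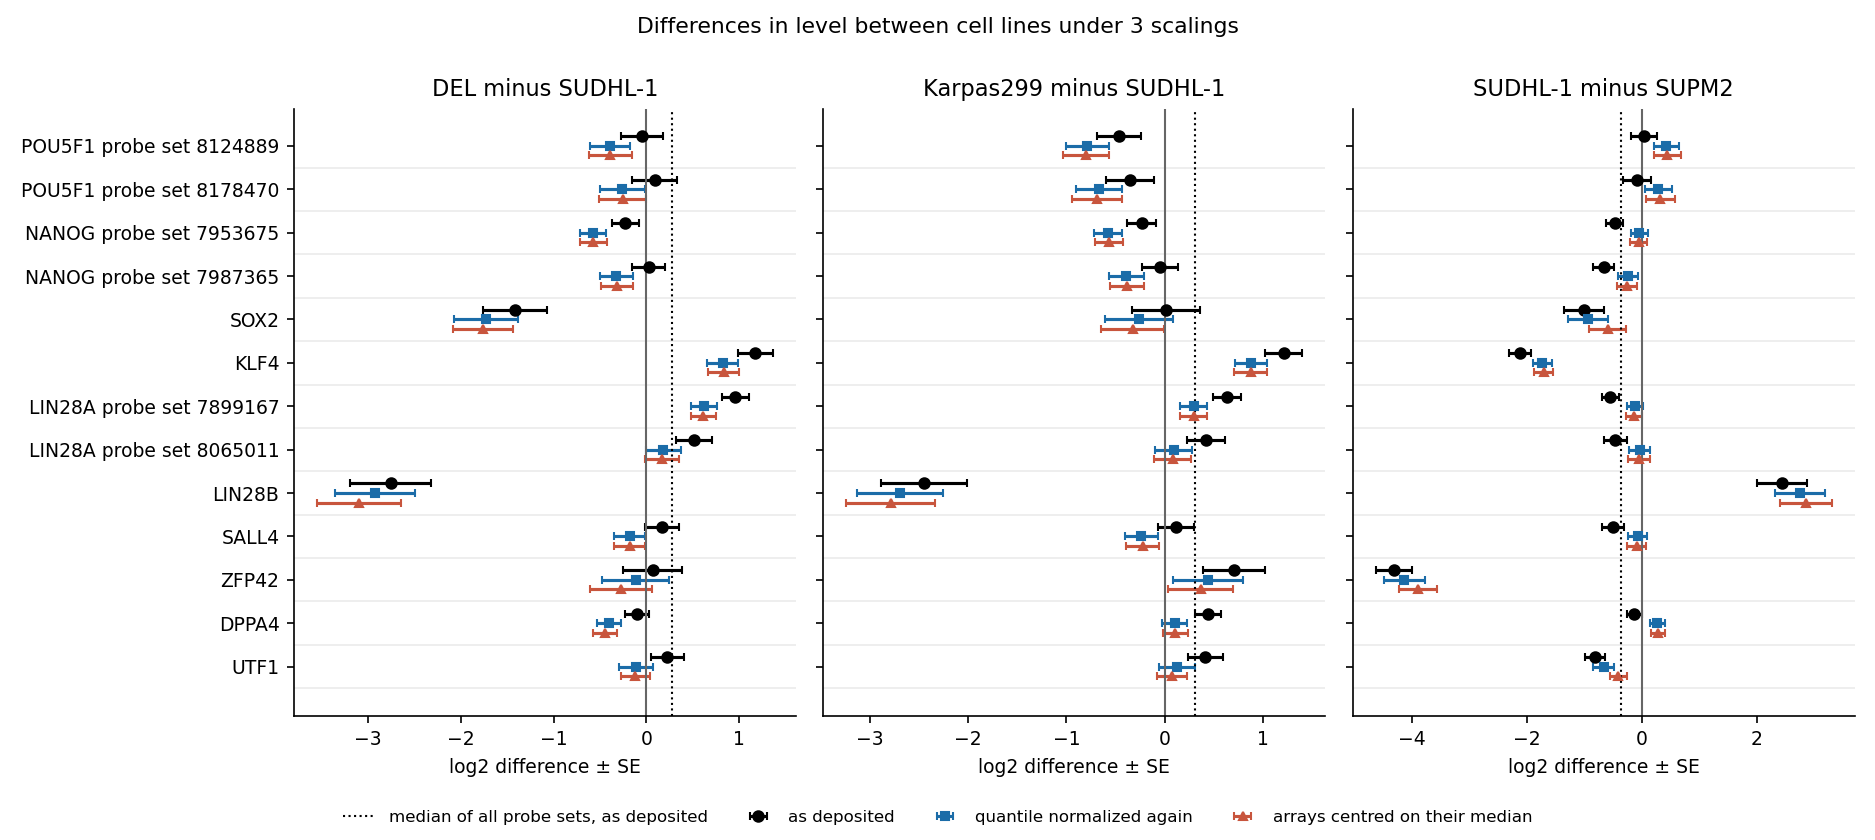
Differences in log2 signal between SUDHL-1 and each other line (horizontal axes, ± limma SE) for the members' probe sets, as deposited (black), after quantile normalization (blue) and after centring each array (red), with the median of all probe sets as deposited as a dotted line. LIN28B, KLF4 and ZFP42 (against SUPM2) keep their distance from 0 under all 3 scalings, while SALL4 and NANOG (7953675) come close to 0 against SUPM2, and DPPA4 does so against Karpas299.

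The remaining members differed by less, and the plot of line differences shows how the scaling moved them. LIN28A on 7899167 averaged 4.54 ± 0.13 (SD, n = 2) in DEL, 4.22 ± 0.17 (n = 2) in Karpas299, 4.14 ± 0.12 (n = 2) in SUPM2 and 3.59 ± 0.14 (n = 6) in SUDHL-1. All 12 values lay below the reference, so the differences that follow are between signals not above it. DEL exceeded SUDHL-1 by a difference of 0.96 (SE 0.14, limma adjusted p = 0.000483) that stayed called at 0.61 to 0.62 after rescaling. On 8065011 it was 0.51 (adjusted p = 0.0525). The excess of Karpas299 and SUPM2 over SUDHL-1 on 7899167, 0.63 and 0.55, shrank to 0.29 to 0.30 and 0.12 to 0.14 and lost its call. Those calls were lost as well without the SP array of the line (adjusted p = 0.0787 and 0.0874). DEL, Karpas299 and SUPM2 were not called apart.

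NANOG 7953675 averaged 4.81 ± 0.35 (SD, n = 2) in SUPM2, 4.34 ± 0.10 (n = 6) in SUDHL-1, 4.11 ± 0.06 (n = 2) in DEL and 4.10 ± 0.12 (n = 2) in Karpas299. SUPM2 exceeded DEL by 0.70 (SE 0.18, limma adjusted p = 0.0401), Karpas299 by 0.71 (adjusted p = 0.0322) and SUDHL-1 by 0.47 (adjusted p = 0.0191) as deposited, but SUDHL-1 by 0.04 to 0.06 after rescaling. The call against DEL was lost under both rescalings (adjusted p = 0.0520 and 0.0567). On 7987365 the excess over SUDHL-1 was 0.67 (adjusted p = 0.00985), and DEL and Karpas299 were not called apart from SUPM2 (adjusted p = 0.117 and 0.0716). Apart from SUPM2 SP on 7987365, all NANOG values lay below the reference. All 3 calls were lost without the SUPM2 SP array (adjusted p = 0.219 to 0.304). The call against DEL was lost without any of 9 of the 12 arrays and that against Karpas299 without any of 4. After rescaling, DEL and Karpas299 lay 0.57 to 0.58 below SUDHL-1 (limma adjusted p = 0.0096 to 0.0107), where the deposited values gave 0.23 and 0.24 with no call.

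UTF1 averaged 7.31 ± 0.0016 (SD, n = 2) in SUPM2, 6.90 ± 0.13 (n = 2) in Karpas299, 6.71 ± 0.28 (n = 2) in DEL and 6.49 ± 0.26 (n = 6) in SUDHL-1, and only the ends of this order were called apart. Their difference was 0.82 (SE 0.18, limma adjusted p = 0.00297) and 0.66 and 0.41 after rescaling, the latter not called (adjusted p = 0.0547). SALL4 averaged 4.67 ± 0.28 (SD, n = 2) in SUPM2, 4.33 ± 0.04 (n = 2) in DEL, 4.28 ± 0.07 (n = 2) in Karpas299 and 4.17 ± 0.25 (n = 6) in SUDHL-1. Its ends differed by 0.50 as deposited (limma adjusted p = 0.0398) and by 0.07 to 0.09 after rescaling, and the call was lost without any of 9 of the 12 arrays.

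DPPA4 averaged 4.03 ± 0.14 (SD, n = 2) in Karpas299, 3.72 ± 0.09 (n = 2) in SUPM2, 3.59 ± 0.19 (n = 6) in SUDHL-1 and 3.48 ± 0.05 (n = 2) in DEL, and neighbours in this order were not called apart. Karpas299 exceeded SUDHL-1 by 0.44 (SE 0.13, limma adjusted p = 0.0179) as deposited and by 0.10 after rescaling, and the call was lost without either Karpas299 array (adjusted p = 0.0995 and 0.117). Rescaled, its DEL level was instead called lower than that of SUDHL-1, by 0.40 and 0.45. POU5F1 on 8124889 averaged 5.55 ± 0.25 (SD, n = 6) in SUDHL-1, 5.52 ± 0.01 (n = 2) in SUPM2, 5.51 ± 0.51 (n = 2) in DEL and 5.08 ± 0.20 (n = 2) in Karpas299. It was 0.47 lower in Karpas299 than in SUDHL-1 with no call (limma adjusted p = 0.109), and 0.79 to 0.80 lower with a call after rescaling (limma adjusted p = 0.0174 and 0.0225).

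Pair by pair, the smallest number of called members was 0, between DEL and Karpas299, where 4.93% of all probe sets were called. Between DEL and SUPM2, 4 members were called (7.78% of all probe sets), and ZFP42, SOX2, KLF4 and NANOG were all higher in SUPM2, a direction called for 2.53% of all probe sets. Between Karpas299 and SUPM2, 3 members were called (10%), and ZFP42, KLF4 and NANOG were higher in SUPM2 (3.86%). For these pairs the counts were 2 and 2 with all probe sets entered (4.49% and 5.73% called). They were 2 and 1 with DEL, Karpas299 and SUPM2 only (3.42% and 5.35%), and 3 and 3 after either rescaling. The KLF4 and NANOG calls of both pairs and the SOX2 call against DEL were also lost without single arrays. The pairs with SUDHL-1 had large backgrounds. Between DEL and SUDHL-1, 4 members were called (44.4%), 2 of them higher in DEL (33.5%) and 2 lower (10.9%). Between Karpas299 and SUDHL-1, 4 members were called (47.9%), 3 of them higher in Karpas299 (36.1%) and 1 lower (11.8%). Between SUDHL-1 and SUPM2, 8 members were called (56.5%), 7 of them higher in SUPM2 (42%) and 1, LIN28B, higher in SUDHL-1 (14.5%). In that last pair 4 members were called under quantile normalization (40.9% of all probe sets) and 3 under centring (41.2%).

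In the wider network, 9 of 22 genes differed between lines, against 60.6% of all probe sets. FOXD3, a forkhead repressor, was lower in SUDHL-1 (4.05 to 4.68) than in DEL, Karpas299 and SUPM2 (5.01 to 5.91). It was 1.31 higher in Karpas299 (limma adjusted p = 0.0005) and 1.42 higher in SUPM2 (0.000228), with 0.97 and 1.01 to 1.03 after rescaling, both called. DPPA5, an RNA-binding marker of early embryos, was lower in SUDHL-1 (2.84 to 3.51) than in the other lines (4.09 to 4.66). All 3 calls were kept at 0.59 to 0.79 after rescaling. Every DPPA5 value lay below the reference, which was at least 4.36 in SUDHL-1 and 4.88 elsewhere, so these differences are between signals not above it. TERT, the catalytic subunit of telomerase, was 0.76, 0.95 and 0.83 higher in DEL, Karpas299 and SUPM2 than in SUDHL-1, and after rescaling the call held for Karpas299 (0.61). TBX3, a T-box repressor, went the other way, with DEL 0.79 below SUDHL-1 (limma adjusted p = 0.00724), 1.13 below it after rescaling, and 1.08 below SUPM2 (adjusted p = 0.0186).

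As LIN28B separated SUDHL-1 from the other lines, genes of the let-7 pathway were set beside it. Of 12 measured let-7 targets, 8 differed between lines, against 60.6% of all probe sets. Of 7 genes that process let-7, handle it with LIN28 or host it (MIRLET7BHG), 6 did. IGF2BP1, an oncofetal RNA-binding protein, was highest in SUDHL-1, at 9.66 to 10.17, against 8.58 to 8.67 in DEL, 8.43 to 8.60 in Karpas299 and 7.54 to 7.66 in SUPM2. It exceeded them by 1.33, 1.43 and 2.35 (limma adjusted p = 7.49e-05, 4.28e-05 and 1.20e-06), and by 1.28 to 2.76 over the pairs after rescaling. DICER1, the nuclease that cuts let-7 precursors and is itself a target, read 10.69 to 11.71 in SUDHL-1 and 8.0 to 9.40 elsewhere. Its excess was 1.65, 1.84 and 2.44, called under all 3 scalings.

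Other targets had other orders. As deposited, more of the called targets were lower than higher in SUDHL-1. The counts were 4 against 2 beside DEL, 4 against 2 beside Karpas299 and 5 against 3 beside SUPM2. Of all probe sets called in these pairs, 75.5%, 75.4% and 74.3% were lower in SUDHL-1, so this direction is no finding about the targets. The median of the 12 targets was 0.19 higher in DEL and 0.25 higher in Karpas299 than in SUDHL-1. For SUDHL-1 minus SUPM2 it was -0.34. Over all probe sets these medians were 0.28, 0.30 and -0.37. HMGA1, a chromatin protein, was lower in SUDHL-1 (10.49 to 11.003) than in the other lines (11.59 to 12.22), by 0.95, 1.38 and 1.32 against DEL, Karpas299 and SUPM2, called under all 3 scalings. IGF2BP3 was highest in SUPM2 (5.75 to 6.16), above DEL by 2.12 and Karpas299 by 1.79 (limma adjusted p = 0.0118 and 0.0227). Its excess over SUDHL-1, 1.20, lost its call at 0.79 to 0.81 after rescaling. The IGF2BP3 means of DEL and Karpas299 lay below the reference of their arrays, so the sizes 2.12 and 1.79 are uncertain. MYC was lowest in SUPM2, at 8.0 and 8.15 against 9.40 to 10.54 elsewhere.

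Among the processing genes, DROSHA, which makes the first cut of the primary transcript, was higher in SUDHL-1 than in Karpas299 by 1.20 and than in SUPM2 by 1.59. The uridylyltransferase TUT4, which LIN28 recruits to let-7 precursors, was 0.93 higher in SUDHL-1 than in SUPM2 (limma adjusted p = 0.00735). XPO5, the exporter of precursors, was lower in SUDHL-1 than in SUPM2 by 1.39. These 4 differences were called under all 3 scalings. MIRLET7BHG, the host transcript of let-7a-3 and let-7b, read 4.40 to 4.77 in SUDHL-1 and 5.21 to 5.47 elsewhere, lower by 0.92, 0.77 and 0.81 against DEL, Karpas299 and SUPM2, and by 0.40 to 0.57 after rescaling, called throughout.

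**Figure D4:**
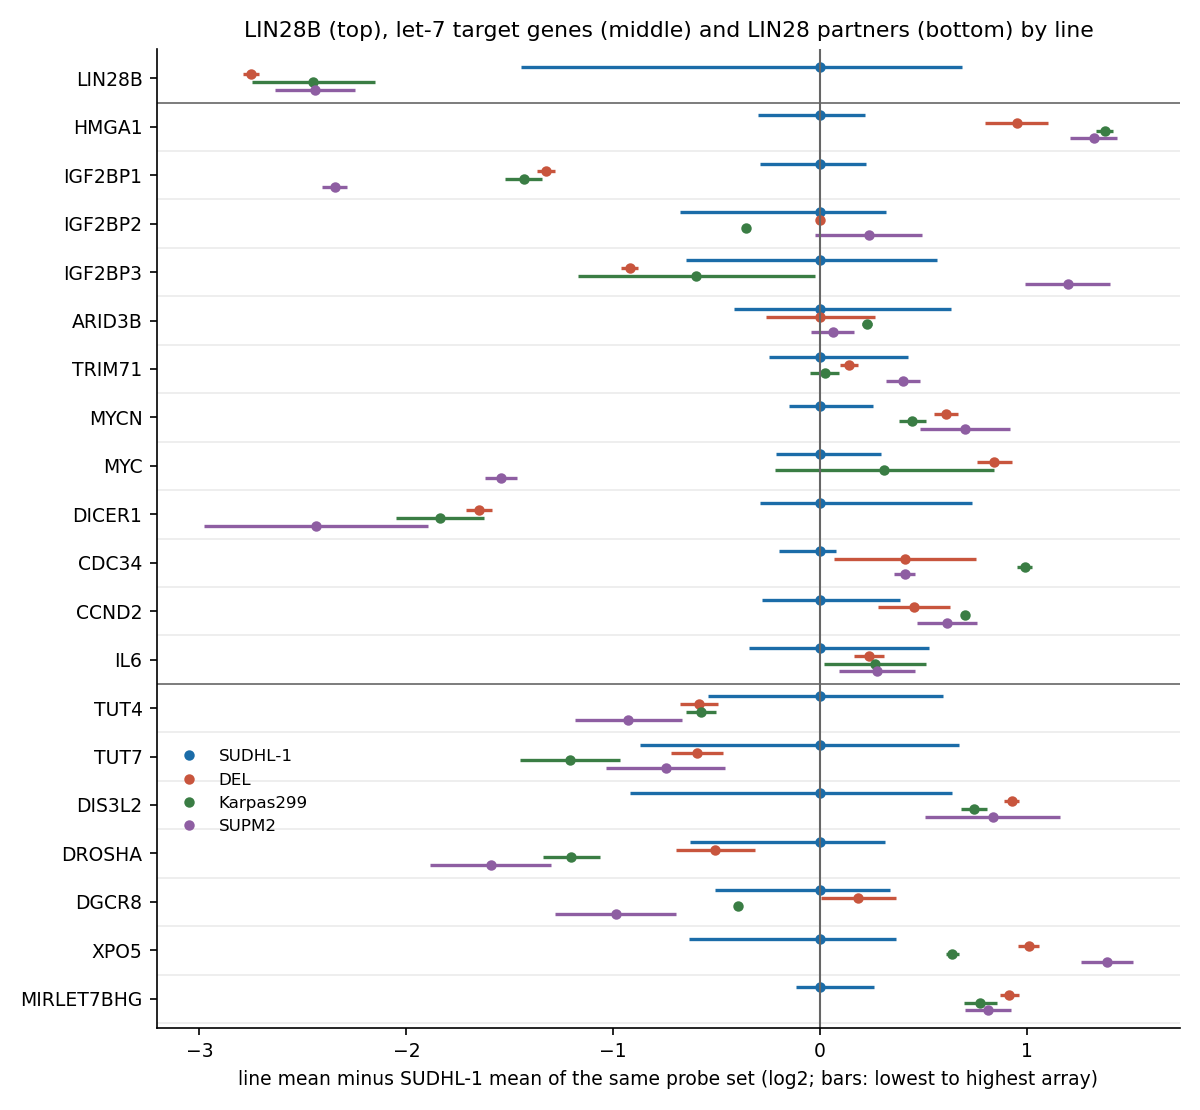
Level of LIN28B, let-7 target genes and genes that process, handle or host let-7 in each line relative to the SUDHL-1 mean of the same probe set (horizontal axis, log2), with line means as points and the lowest to the highest array as bars. IGF2BP1 and DICER1, like LIN28B, are highest in SUDHL-1, while HMGA1 and MIRLET7BHG are lowest in SUDHL-1.

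The plot of let-7 genes gives each gene as its distance from SUDHL-1, so points left of 0 are genes higher in SUDHL-1. The let-7 precursors whose mature guides are printed above had 10 probe sets, of which 0 differed between lines, against 60.6% of all probe sets. They read 2.00 to 6.29, and 6 of them lay above the reference on 0 arrays. MIRLET7I and MIRLET7D did so on 11 arrays each. MIRLET7F1 read 2.81 to 5.65 in SUDHL-1 and 2.32 to 3.38 elsewhere. These probe sets read precursor RNA and not the mature guides, whose level is not analysed here. This list was added after the members' values were seen.

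Neighbours on the chromosome were read to see whether they shared the line pattern. TRIML2, 86026 bases from ZFP42, read 4.47 and 4.72 in SUPM2 and 3.70 to 4.36 elsewhere. FAT1, 1269075 bases on the other side, read 5.64 and 5.68 in SUPM2, 5.08 and 5.31 in DEL, 4.77 and 4.89 in Karpas299, and 3.84 to 4.13 in SUDHL-1. HACE1, 77107 bases from LIN28B, read 6.46 to 7.65 and was not called between lines (limma adjusted p = 0.523). POPDC1, 13490 bases on the other side, was lower in SUDHL-1, at 4.76 to 6.32 against 6.47 to 7.75 elsewhere (limma adjusted p = 0.00302). ACTL7B, 1364819 bases from KLF4, had its lowest mean in SUDHL-1 (5.33) and its highest in SUPM2 (6.09), as KLF4 did (limma adjusted p = 0.00521). The array medians were likewise lowest in SUDHL-1 and highest in SUPM2. RAD23B, 152658 bases on the other side of KLF4, had its lowest mean in SUPM2 (8.74, limma adjusted p = 0.00859). DNAJC19, 722087 bases from SOX2, had its highest mean in SUDHL-1 (11.40, limma adjusted p = 0.00105). ATP11B, 1079068 bases on the other side, was not called (limma adjusted p = 0.901). TRIML2 and FAT1, like ZFP42, were highest in SUPM2, and both were called between lines (limma adjusted p = 0.0255 and 7.64e-06), as were 60.6% of all probe sets. TRIML2 lay below the reference in SUPM2. FAT1 lay below the reference in Karpas299 and SUDHL-1 and above it in DEL and SUPM2. Neighbours were not read under the other scalings, and a shared cause was not tested.

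The genes whose levels followed each member most closely over the 12 arrays were taken as a description, since arrays of a line are alike and such values need few lines to be high. For ZFP42 they were CFAP95, NRN1 and BEX5 (Pearson r = 0.98 each), and NRN1, which encodes a neuronal surface protein, spanned 3.53 to 9.65. For LIN28B they were GPR158, GEMIN8 and UGT2B7 (r = 0.96 each). For KLF4 they were TAFAZZIN (r = 0.99), PKHD1 and GATA2 (r = 0.98 each), and the haematopoietic factor GATA2 averaged 4.63 in SUDHL-1 and 6.44 in SUPM2. For SOX2 the closest were FCHO1 (r = 0.88), DTX3 and RPL12 (r = 0.87 each).

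For LIN28A on 7899167 the closest were CAMKK1, CHRM3 and SVEP1 (r = 0.97 each), and for UTF1 they were SFRP2 (r = 0.97), LEKR1 and UFSP1 (r = 0.95 each). The NANOG probe sets shared no gene in their closest 3, with PGPEP1L (r = 0.93), SELE and IRAG1-AS1 (r = 0.91 each) for 7953675 and PPBP (r = 0.95), LINC01559 and TMEM30B (r = 0.93 each) for 7987365. For DPPA4 they were ERF (r = 0.87), CDIP1 and KIF18B (r = 0.86 each). Among the genes named by likeness, PKHD1, SVEP1, SFRP2, LEKR1, SELE and LINC01559 read at most 4.28, below the reference on every array. Their r values thus describe signals not above it.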

How the data were processed

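The authors deposited log2 signals made with RMA per the submitters' processing notes, from human gene arrays hybridised with amplified (NuGEN Ovation Pico) and biotin-labelled RNA per the labels' protocols. The RMA version and whether the 12 arrays were normalized together are not given in the sources used here. Members and gene lists were chosen with earlier results of these data known. Of 33297 probe sets, 19460 had 1 symbol, 1754 several and 12083 none. The 21214 with a symbol entered limma 3.58.1 in R 4.3.3, with Benjamini-Hochberg adjustment over all of them and a threshold of 0.05. The fits were SP against MP in SUDHL-1, the mean of 1 difference per line over 4 lines, the interaction of population with SUDHL-1, and levels between lines (F test and 6 pairs, with population as covariate).

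Text names all members, up to 4 genes per list with the smallest p, and any past the threshold of which the largest are given, and the 3 genes most correlated with each member that differed between lines. Genes above the reference on all arrays and the let-7 precursors were named after their values were seen. Alternatives changed the probe sets entered, the scaling, the variance prior, the samples and the reference. Tested on simulated data of the same size, the fit in SUDHL-1 recovered 36% of changes of log2 1 and 83% of log2 2. The fit over 4 lines recovered 57% and 88%, that between lines 74% and 95%, and the interaction 24% and 77%. The simulated noise was independent between arrays, with the SUDHL-1 spread of each probe set. For the fit over 4 lines the SP shift was equal in every line. Between lines the shift was in SUDHL-1 alone, which has 6 arrays. These shares therefore do not cover SP shifts that vary between lines, or shifts in a line with 2 arrays.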

Additional observations from a re-analysis of the deposited data

Results flagged for a closer look

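LIN28B on the 6 SUDHL-1 arrays held a value that stood apart. MP replicate 2 read 3.83, and the other 5 arrays read 5.19 to 5.96. The gap to the nearest array was 0.638 of the whole range, above the critical value of Dixon's test for 6 samples. With 26 groups of member values examined, chance gives such a gap in about 1 of 20. Without that array the SP minus MP difference in SUDHL-1 was -0.08 in place of 0.51, while the excess of SUDHL-1 over each other line stayed called by limma.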

How the results depend on the processing

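Counts of members called for SP against MP in SUDHL-1, over the 4 lines and for the interaction were 0 in every alternative. That includes a replicate block in SUDHL-1 (0 called). With group means subtracted, same-numbered SP and MP arrays there correlated at -0.003, -0.074 and -0.131. These values gave no sign of pairing, but they cannot show that same-numbered arrays had separate sources. Between lines, 8 of 10 members were called, against 60.6% of all probe sets. The count was 4 of the 6 members left without dim probe sets (64.5%), 9 after quantile normalization (48.0%), 7 with arrays centred (48.3%) and 6 to 8 with an array left out. It was 2 with DEL, Karpas299 and SUPM2 only (5.48%), a fit with fewer arrays and without SUDHL-1, in which the range of line means of LIN28B was 0.31 in place of 2.75. Values above the reference numbered 3 in place of 47 with the keratin-associated, taste receptor and beta-defensin reference. Of 24 pairwise calls of member probe sets, 10 held in every alternative that entered the probe set. They were those of LIN28B and KLF4 against SUDHL-1, ZFP42 in SUPM2 and LIN28A (7899167) between DEL and SUDHL-1. The LIN28B, ZFP42 and LIN28A probe sets were not entered in the run without dim probe sets, which therefore did not test their calls.

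Some SP minus MP values changed sign, and the cause was not tested. Among them was LIN28B, at 0.51 in SUDHL-1 with all arrays. In SUDHL-1, quantile normalization gave -0.0053 for LIN28A (7899167) and -0.026 for NANOG (7987365), which was -0.011 with arrays centred. Over the lines, POU5F1 (8178470) was 0.021 with all 12 arrays and line as a block. The UTF1 interaction was -0.027 and -0.023 under those 2 scalings. With an array or line left out, SUDHL-1 values ranged from -0.030 to 0.13 for LIN28A (7899167), -0.081 to 0.059 and -0.079 to 0.15 for NANOG (7953675, 7987365), -0.0089 to 0.35 for SALL4, -0.42 to 0.26 for SOX2 and -0.082 to 0.82 for LIN28B. Over the lines they ranged from -0.11 to 0.23 for LIN28A (8065011), -0.12 to 0.061 for KLF4 and -0.24 to 0.066 for POU5F1 (8178470). Interaction values ranged from -0.10 to 0.056 for LIN28A (7899167), -0.16 to 0.19 for UTF1, -0.090 to 0.27 for SALL4 and -0.18 to 0.73 for LIN28B. Signals below the reference limit what can be said of LIN28A, SALL4 and DPPA4.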
